A study of Mus musculus with 6 samples.

Results

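The enzymes described here are those of the tricarboxylic acid (TCA) cycle, represented by 9 named genes: Cs, Idh3a, Idh3b, Idh3g, Ogdh, Sucla2, Suclg1, Fh1 and Mdh2. They were chosen by symbol, and all 9 were found among the 55401 Ensembl genes of the deposited count table. The series measured polyadenylated RNA of glomeruli, the filtering units of the kidney, isolated from mice in 2 groups. The DKD group (diabetic kidney disease, as the series title spells it) and the Control group hold 3 libraries each. The labels enter DKD and Control under genotype and add no allele or agent, so how the disease arose and the strain and age of the mice are not known here. Nothing in the labels ties a library to an animal of its own, and p-values then speak only of the spread among the libraries, which may be technical.

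The cycle runs in the mitochondrial matrix. It oxidizes the acetyl group of acetyl-CoA to carbon dioxide and hands the electrons to the respiratory chain as NADH and reduced flavin. Kidney tubule cells, above all those of the proximal tubule, are rich in mitochondria and depend on the cycle for the energy of transport, whereas podocytes hold fewer mitochondria and also draw on glycolysis.

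Transcripts of 8 of the 9 genes were higher on average in DKD than in Control glomeruli, by 0.02 to 0.49 on the log2 scale, and Sucla2 was lower, but none passed the test. The test was the quasi-likelihood test of edgeR, with p-values adjusted over the 19717 genes tested and a threshold of 0.05, which 228 genes (1.16%) passed. DESeq2 and limma-voom also called 0 of the 9, against 2483 and 204 of the same 19717 genes, of which DESeq2 gave an adjusted p to 18167. One gene, Mdh2, had an unadjusted p under 0.05, against 22.6% of all genes tested, so the members were not called more often than other genes. The median log2 fold change of the 9 was 0.27, against 0.0029 over all genes tested, of which 50.2% were higher in DKD. The 9 genes were abundant, with between 9250 and 49578 counts in every library, and all of them passed the filter on low counts.

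The libraries held 71154026 to 83576494 counts each, and Control replicate 3 stood apart from the other Control libraries on the first 2 principal components of log2 CPM. Markers of the proximal tubule were present in all libraries beside those of the glomerulus. The 10 proximal tubule markers summed to between 8917 and 17581 CPM in DKD, against 17309 to 37310 CPM in Control, and the 10 podocyte markers to between 402 and 525 CPM in DKD, against 527 to 706 CPM in Control. One gene, Kap, made up much of the proximal tubule sum, at 4354 to 11056 CPM in DKD and 7800 to 21114 CPM in Control. The overlap of these sums thus need not hold for the other proximal markers. Of the 10, 6 had all DKD libraries below all Control libraries, against 15.2% of all genes tested. No marker of either list was at 0 in any library. Control replicate 3 had the highest proximal tubule sum, 37310 CPM, against 17309 and 19268 CPM in Control replicates 1 and 2. In bulk RNA, fewer cells of a type and less RNA per cell cannot be told apart. The part of these differences in the results below was not tested.

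The cycle begins with citrate synthase, encoded by Cs (ENSMUSG00000005683), which joins acetyl-CoA to oxaloacetate. Cs was measured at 331, 283 and 351 CPM in DKD replicates 1 to 3, against 252, 246 and 299 CPM in Control replicates 1 to 3. CPM here are counts brought to one library size by TMM scaling. The groups overlapped because Control replicate 3 lay above DKD replicate 2. The means were 322 ± 35.0 CPM in DKD and 266 ± 29.0 CPM in Control (SD, n = 3 each), with a log2 fold change of 0.27 ± 0.15 (SE) and an edgeR adjusted p of 0.318.

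Isocitrate dehydrogenase 3, the NAD-dependent enzyme that turns isocitrate into 2-oxoglutarate, is built from a catalytic alpha subunit (Idh3a, ENSMUSG00000032279) and the subunits beta (Idh3b, ENSMUSG00000027406) and gamma (Idh3g, ENSMUSG00000002010). Idh3a was measured at 196, 179 and 207 CPM in DKD replicates 1 to 3, against 132, 140.5 and 183 CPM in Control replicates 1 to 3. Only Control replicate 3 reached into the DKD range. Its log2 fold change was 0.36 ± 0.16, with an edgeR adjusted p of 0.233. Idh3b, which together with gamma tunes the activity of the complex, was measured at 329, 289 and 289 CPM in DKD replicates 1 to 3, against 233, 245 and 325 CPM in Control replicates 1 to 3. Idh3g had 289.8, 252 and 298 CPM in DKD replicates 1 to 3, against 203, 215 and 307 CPM in Control replicates 1 to 3. For both genes Control replicates 1 and 2 lay below all DKD libraries and Control replicate 3 lay within or above them. The log2 fold changes were 0.18 ± 0.17 for Idh3b and 0.21 ± 0.19 for Idh3g, with edgeR adjusted p of 0.576 and 0.547.

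Ogdh (ENSMUSG00000020456) encodes the first component of the 2-oxoglutarate dehydrogenase complex, which makes succinyl-CoA. It had the highest mean CPM of the 9 genes and the smallest difference. Ogdh was measured at 556, 553 and 480.3 CPM in DKD replicates 1 to 3, against 455, 456 and 655 CPM in Control replicates 1 to 3. The lowest and the highest library were both Control, so the DKD libraries lay inside the Control range. The log2 fold change was 0.02 ± 0.19 (edgeR adjusted p 0.960), and its sign turned negative with library totals as the scaling and when any one library was left out except Control replicate 3 or DKD replicate 3.

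Succinyl-CoA ligase releases succinate and charges a nucleotide. Its alpha subunit, Suclg1 (ENSMUSG00000052738), pairs with either of 2 beta subunits, Sucla2 (ENSMUSG00000022110) in the ATP-forming enzyme or Suclg2 in the GTP-forming one. Suclg1 was measured at 398, 349 and 373 CPM in DKD replicates 1 to 3, against 266, 278 and 362 CPM in Control replicates 1 to 3. The groups touched only through Control replicate 3, and the log2 fold change was 0.31 ± 0.16 (edgeR adjusted p 0.306). Sucla2 had 138, 152 and 140.1 CPM in DKD replicates 1 to 3, against 151, 156 and 231 CPM in Control replicates 1 to 3. It was the single member with a lower mean in DKD, and the groups overlapped through DKD replicate 2, just above Control replicate 1. Means were 143 ± 7.27 CPM in DKD and 179 ± 44.8 CPM in Control (SD, n = 3 each), and the log2 fold change was −0.32 ± 0.18 (edgeR adjusted p 0.343). Without Control replicate 3 it was −0.10 ± 0.11.

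Fumarase, encoded by Fh1 (ENSMUSG00000026526), hydrates fumarate to malate. Fh1 was measured at 250.5, 220.4 and 241 CPM in DKD replicates 1 to 3, against 166, 179.7 and 241 CPM in Control replicates 1 to 3. Control replicate 3 alone lay within the DKD range, and the log2 fold change was 0.28 ± 0.17 (edgeR adjusted p 0.374).

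Mitochondrial malate dehydrogenase, encoded by Mdh2 (ENSMUSG00000019179), closes the cycle by regenerating oxaloacetate, and it also serves the malate-aspartate shuttle. It had the largest difference of the 9. Mdh2 was measured at 517, 418 and 499 CPM in DKD replicates 1 to 3, against 307, 309.5 and 407 CPM in Control replicates 1 to 3. All DKD libraries lay above all Control libraries, which held for this member alone and for 15.5% of all genes tested. No member had all DKD libraries below all Control libraries, against 15.2% of all genes tested. Means were 478 ± 53.0 CPM in DKD and 341 ± 56.8 CPM in Control (SD, n = 3 each), and the log2 fold change was 0.49 ± 0.17 (95% interval 0.08 to 0.89), with an edgeR unadjusted p of 0.0241 and an adjusted p of 0.157.

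**Figure D1:**
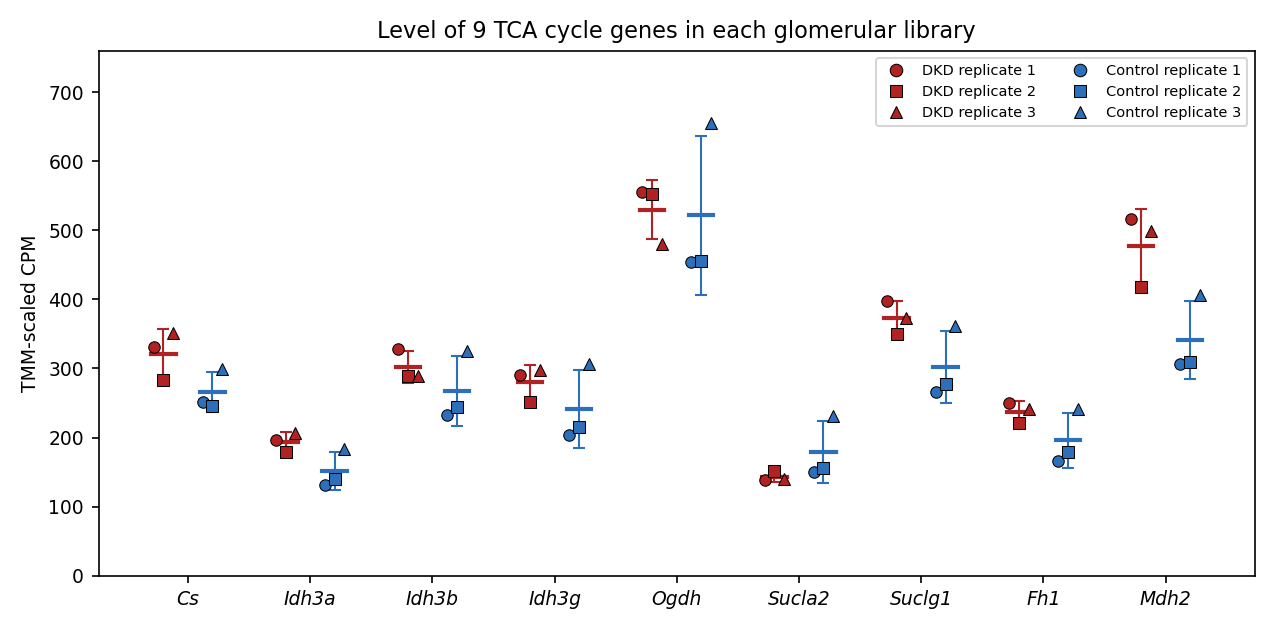
TMM-scaled CPM (linear axis from 0) of the 9 genes in each library, with DKD left of Control, a marker shape for each replicate, and the mean (bar) ± SD (whiskers, n = 3). For all 9 genes Control replicate 3 (blue triangle) lies above Control replicates 1 and 2, and for Mdh2 the DKD libraries (418 to 517) lie above all Control libraries (307 to 407).

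The upstream sequences of Mdh2, the member with the largest log2 fold change, and of Sucla2, the single lower member, are shown because these genes stood at opposite ends of the list. The sequences are from RefSeq on build GRCm38.p6, the 250 bases before the annotated start, plus strand for both genes, and 8 of the 9 members had an entry. Capitals mark CTCGCGAG, the core of a palindromic promoter element, in Mdh2, and AGGTCA, the half-site of nuclear receptors, in Sucla2.
Mdh2, chr5:135778399-135778648: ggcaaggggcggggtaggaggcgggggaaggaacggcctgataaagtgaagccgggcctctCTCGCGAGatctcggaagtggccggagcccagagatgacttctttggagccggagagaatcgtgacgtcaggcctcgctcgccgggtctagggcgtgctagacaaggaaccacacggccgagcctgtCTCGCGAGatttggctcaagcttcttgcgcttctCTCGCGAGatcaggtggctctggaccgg
Sucla2, chr14:73552536-73552785: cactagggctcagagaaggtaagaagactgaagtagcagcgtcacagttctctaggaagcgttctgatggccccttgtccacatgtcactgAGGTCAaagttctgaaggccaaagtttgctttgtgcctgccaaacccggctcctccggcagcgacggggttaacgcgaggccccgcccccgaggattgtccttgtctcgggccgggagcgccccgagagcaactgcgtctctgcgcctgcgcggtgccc

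The Mdh2 window holds CTCGCGAG at 3 places, which begin 189, 62 and 28 bases before the start. Of 32851 windows of this length, 250 (0.761%) hold it at all and 2 hold it at 3 or more places, and of the 8 members only Mdh2 holds it. AGGTCA was found once in Sucla2 and once in Fh1, against 14% of all windows. Of 4 other motifs searched on both strands, CCAAT was found in Cs, Fh1, Idh3b and Ogdh (33.8% of all windows), the cAMP response element TGACGTCA in Mdh2 and Ogdh (1.55%), and the ETS motif CCGGAAG in Idh3g (6.91%). GCATGCGC, from the NRF1 motif, was found in Ogdh (2.26%), a gene with several annotated starts whose matches lay in different windows. None of the 6 motifs lies inside another, they were chosen with these windows in view, and a match is a description and not a site. AGGTCA was thus present in a member with a higher and in the member with a lower mean.

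Control replicate 3 bore on the size of these differences. For each of the 9 genes it had the highest CPM of the Control group, and for 5 of them (Idh3b, Idh3g, Ogdh, Sucla2 and Fh1) it was above at least 2 of the DKD libraries. As a share of all counts, with no TMM scaling, the 9 genes together held 0.274%, 0.273% and 0.273% in DKD replicates 1 to 3, against 0.244%, 0.249% and 0.272% in Control replicates 1 to 3. Control replicate 3 thus lay next to the DKD libraries on this sum. Without it, all DKD libraries lay above both remaining Control libraries for 8 of the 9 genes, Sucla2 being the exception, against 22.8% of all genes tested with DKD above and 46.8% not overlapping in either direction. In that fit 7 of the 9 had an unadjusted edgeR p under 0.05 (all higher in DKD), against 12.7% of all genes higher in DKD and 24.1% in either direction. The median log2 fold change of the 9 was 0.42. Without DKD replicate 2 that count was 1, and without any of the other 4 libraries it was 0. Control replicate 3 held the highest Control level of all 9 genes, so leaving it out had to lower their Control means. Control replicates 1 and 2, which remain, were the most alike pair of libraries (r = 0.98 for log2 CPM). The 9 genes share the same libraries, so 7 of 9 are not 7 separate results. Without Control replicate 3 the smallest adjusted p was 0.0664, for Mdh2, and it was 0.0714 for Idh3a. No member was thus called by edgeR with 5 libraries either.

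**Figure D2:**
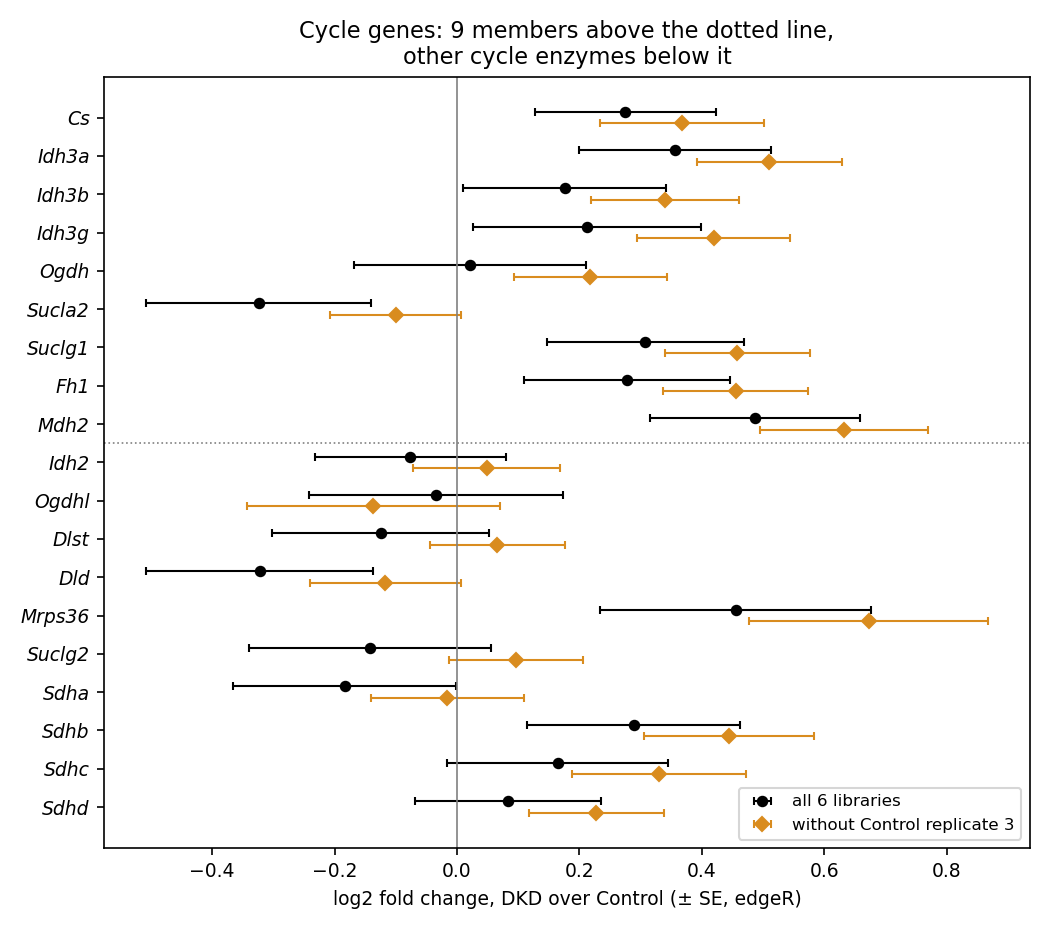
Log2 fold change, DKD over Control, with its SE for the 9 members (above the dotted line) and 10 other enzymes of the cycle (below it), from all 6 libraries (black) and without Control replicate 3 (orange). Every gene but Ogdhl moves to the right without that library, Mdh2 reaching 0.63 and Sucla2 −0.10.

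The balance among the 9 genes differed between the groups in a way that Control replicate 3 shared with its own group. For this, each gene's count was divided by the geometric mean of the other 8 in the same library, a log2 value that no scaling factor can move. On that measure the DKD and Control libraries did not overlap for 5 of the 9 genes. Against the mean of the 9 members, 27.9% of all genes tested did not overlap. The 9 values are tied to each other, since a rise in one lowers the rest.

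Sucla2 stood at −1.30, −0.98 and −1.23 in DKD replicates 1 to 3, against −0.65, −0.64 and −0.50 in Control replicates 1 to 3. This was the widest gap, −0.57 as DKD minus Control, and Control replicate 3 lay farthest from the DKD libraries. Mdh2 stood at 0.84, 0.66 and 0.83 in DKD replicates 1 to 3, against 0.51, 0.46 and 0.42 in Control replicates 1 to 3, a difference of 0.32. Smaller gaps without overlap were found for Idh3a (0.17), Suclg1 (0.12) and Fh1 (0.09), all with DKD above. Each of these 5 gave p = 0.1 in a two-sided exact permutation test, the smallest that 3 against 3 allows. Ogdh differed by −0.19 (exact permutation p = 0.2), and Cs, Idh3b and Idh3g differed by 0.07, −0.03 and 0.02 with groups that overlapped. Relative to the other members, Sucla2 was therefore lower, and Mdh2 higher, in every DKD library than in any Control library. Cycle enzymes outside the members do not enter this measure. Exon length can still enter it. Over 19684 genes with a length, the log2 fold change fell with exon length (Spearman rho −0.249). Without that trend, log2 fold changes were 0.18 for Fh1, 0.30 for Suclg1, 0.37 for Idh3a, 0.33 for Cs, 0.41 for Mdh2 and −0.38 for Sucla2. In the main fit they were 0.28, 0.31, 0.36, 0.27, 0.49 and −0.32. The measure itself was not computed with the trend removed.

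**Figure D3:**
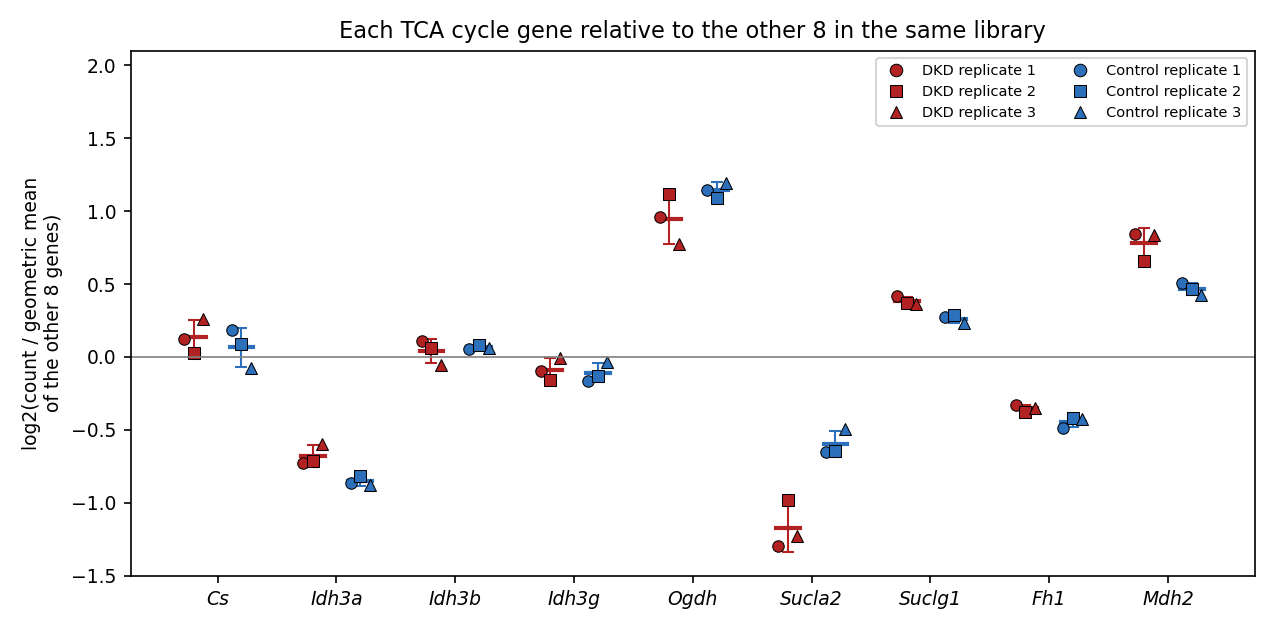
Log2 of each gene's count over the geometric mean of the other 8 genes in the same library (linear axis of log2 values), DKD left of Control, with the mean (bar) ± SD (whiskers, n = 3). Sucla2 lies between −1.30 and −0.98 in DKD and between −0.65 and −0.50 in Control, and Control replicate 3 (blue triangle) sits with its own group.

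Ratios between partner genes within a library were also compared, for 4 pairs. The beta subunits Sucla2 and Suclg2 compete for the same alpha subunit. The log2 ratio of Sucla2 to Suclg2 was −1.39, −1.29 and −1.34 in DKD replicates 1 to 3, against −1.20, −1.08 and −1.18 in Control replicates 1 to 3, a difference of −0.19. The ratio of Idh3a to Idh3g, catalytic to regulatory subunit, averaged −0.53 ± 0.03 in DKD and −0.66 ± 0.07 in Control (SD, n = 3 each). Ogdh over Dlst, the first and second components of one complex, averaged 0.56 ± 0.07 in DKD and 0.41 ± 0.01 in Control. Mdh2 over Mdh1, its cytosolic counterpart, had the widest difference of the 4 pairs, 0.42, from means of −1.16 ± 0.22 in DKD and −1.58 ± 0.08 in Control. The groups did not overlap for any of the 4 pairs. Of all tested genes divided by the same denominator, 21.7% did not overlap for Suclg2, 23.5% for Idh3g, 24.1% for Dlst and 21.6% for Mdh1. Each pair gave p = 0.1 in a two-sided exact permutation test, the smallest possible. No scaling factor enters these ratios, and they compare groups for a pair of genes, not the levels of the 2 genes. Exon length can still enter them (5456 bases for Ogdh and 9559 for Dlst). With the length trend removed, the log2 fold changes of Ogdh and Dlst were 0.06 and 0.02, against 0.02 and −0.12 in the main fit. They were −0.38 and −0.16 for Sucla2 and Suclg2, 0.37 and 0.07 for Idh3a and Idh3g, and 0.41 and −0.09 for Mdh2 and Mdh1. Only Ogdh and Dlst came closer together than in the main fit. A pseudogene, Gm15163, holds 20.1% of the 31-base words of Suclg2, so its counts may be split, whereas other genes hold at most 5.55% of the words of any member (Cs, mostly through Csl).

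**Figure D4:**
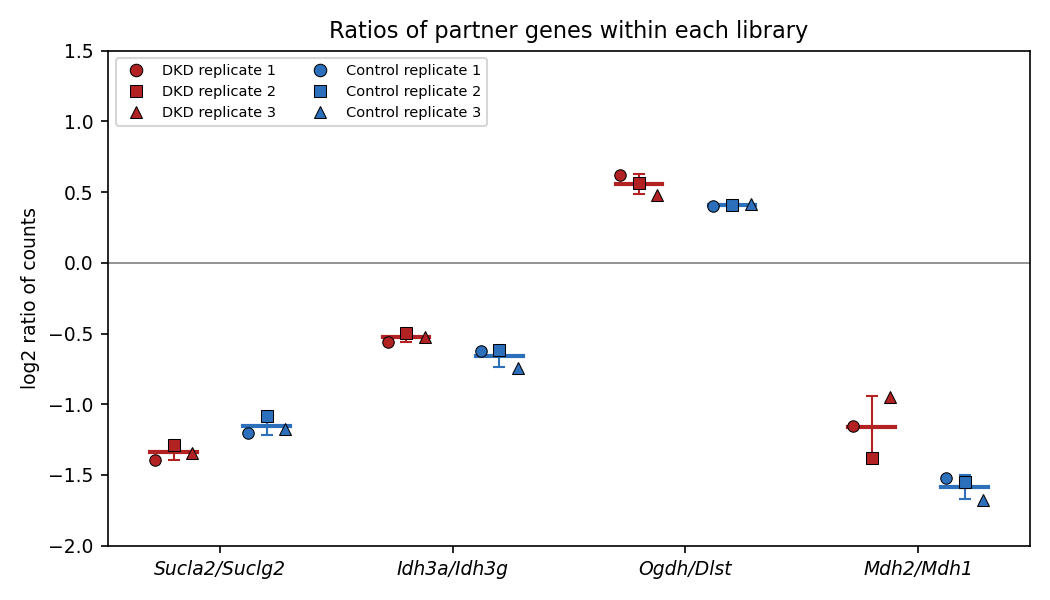
Log2 ratio of the counts of 4 pairs of partner genes in each library, DKD left of Control, with the mean (bar) ± SD (whiskers, n = 3). Sucla2/Suclg2 is lower in DKD (−1.39 to −1.29) than in Control (−1.20 to −1.08), and the other 3 ratios are higher in DKD.

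Divided by exon length, the levels of the 9 genes could be set in order. In DKD, Mdh2 was highest at 134 ± 14.9 CPM per kilobase (SD, n = 3), followed by Idh3g (104 ± 9.07), Ogdh (97.1 ± 7.84), Idh3b (88.3 ± 6.70), Suclg1 (80.9 ± 5.25), Fh1 (70.0 ± 4.55), Cs (55.6 ± 6.05), Idh3a (38.3 ± 2.76) and Sucla2 (35.9 ± 1.82). From Idh3g to Suclg1 each gene touched the next within mean ± SD, as did Idh3a and Sucla2, while Mdh2 stood clear of Idh3g. In Control, Mdh2 (95.7 ± 16.0) and Ogdh (95.6 ± 21.2) shared the top, and Idh3a (29.9 ± 5.38) took the last place below Sucla2 (45.0 ± 11.2). Every pair of neighbours in the Control order touched within mean ± SD. Libraries shift both genes of a pair together, so the order was also read within libraries. Sucla2 lay above Idh3a in 3 of 3 Control libraries, and Idh3a above Sucla2 in 2 of 3 DKD libraries. Mdh2 lay above Ogdh, and Cs above Sucla2, in 2 of 3 Control libraries, and Idh3g above Ogdh in 2 of 3 DKD libraries. Neighbours not named in these counts kept their order in 3 of 3 libraries of the group. The lengths are of all annotated exons in GENCODE M21, which can be longer than the transcripts present.

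The other 11 enzymes and subunits of the cycle were split, with 5 higher and 6 lower in DKD, a median of −0.03 and none past the threshold by edgeR, DESeq2 or limma-voom (1 with an unadjusted p under 0.05). Among those with the smallest p were Mrps36, a small protein that holds the 2-oxoglutarate dehydrogenase complex together, at 0.45 ± 0.22, Dld, the lipoamide dehydrogenase of that complex, at −0.32 ± 0.19, and Sdhb, the iron-sulfur subunit of succinate dehydrogenase, at 0.29 ± 0.17. Dlst averaged 359.7 ± 15.0 CPM in DKD and 392 ± 84.6 CPM in Control (SD, n = 3 each), and Suclg2 averaged 363 ± 7.28 CPM in DKD and 400.2 ± 106 CPM in Control.

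Of 13 genes that govern the entry of fuel into the cycle, 1 rose and 2 fell by edgeR. Pdk4, a kinase that switches pyruvate dehydrogenase off, rose by 2.50 ± 0.33 on the log2 scale (324 ± 109 CPM in DKD and 57.3 ± 18.4 CPM in Control, SD, n = 3 each, edgeR adjusted p 0.0282). Pdp2, a phosphatase that switches it back on, had 33.0 ± 1.23 CPM in DKD and 70.1 ± 9.02 CPM in Control, and its log2 fold change was −1.09 ± 0.12 (edgeR adjusted p 0.0192). Acss1, the mitochondrial acetyl-CoA synthetase that feeds acetate to the cycle, had a log2 fold change of −0.73 ± 0.12 (edgeR adjusted p 0.0400). The calls of Pdk4 and Pdp2 were lost without Control replicate 1, Control replicate 2, DKD replicate 1 or DKD replicate 3, and that of Acss1 without any library except Control replicate 3, with edgeR adjusted p of up to 0.115 for Pdk4, 0.104 for Pdp2 and 0.153 for Acss1. With no filter on low counts Pdk4 (0.0564) and Acss1 (0.0729) also missed the threshold, and Acss1 did with the length trend removed (0.0896). DESeq2 and limma-voom called 3 of the 13 as well.

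Genes that fill, drain and shuttle cycle intermediates did not pass, with 11 of 21 higher, 10 lower and 0 called by edgeR (7 with an unadjusted p under 0.05). DESeq2, which called 2483 of all 19717 genes tested, called 3 of these 21, and limma-voom called 0. The smallest p were those of Pck1, which draws oxaloacetate off toward glucose, at 6019.98 ± 1467 CPM in DKD and 1301 ± 724 CPM in Control (log2 fold change 2.21 ± 0.42, edgeR adjusted p 0.0573), and Acly, which splits exported citrate, at −0.66 ± 0.13 (edgeR adjusted p 0.0573). Mdh1 averaged 1067 ± 94.3 CPM in DKD and 1029.9 ± 237 CPM in Control. Of 14 genes for lipoylation, iron-sulfur assembly and protein upkeep none was called by edgeR, DESeq2 or limma-voom (2 had an unadjusted edgeR p under 0.05), with Sdhaf1, an assembly factor of succinate dehydrogenase, at 0.43 ± 0.12 and Lipt1, a lipoyl transferase, at 0.55 ± 0.20. Of 10 regulators of mitochondrial genes, 8 were lower in DKD, with a median of −0.29, and 1 fell. That was Gabpa, an ETS factor of nuclear mitochondrial genes, with 29.5 ± 1.91 CPM in DKD and 47.1 ± 4.45 CPM in Control (log2 fold change −0.68 ± 0.11, edgeR adjusted p 0.0472). Leaving out any one library ended that call, with an edgeR adjusted p between 0.0505 and 0.161. It was also lost with limma-voom (adjusted p 0.051, 0 regulators called), RLE factors (0.052), no filter (0.0865), the length trend removed (0.111) and mitochondrial genes left out (0.0529), while DESeq2 called 2 of the 10.

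Among 10970 named genes with a mean of at least 5 CPM, the 5 whose log2 CPM followed the mean profile of the 9 members most closely over the 6 libraries were Tmem33, Brcc3, Chchd2, Cog4 and Tmem179b. Likeness was the root mean square distance between centred log2 values, 0.0245 for Tmem33 and 0.0371 for Tmem179b. Among the members themselves it ran from 0.0443 for Idh3b to 0.272 for Sucla2, so Sucla2 was the member least like the rest. That profile stood at 0.17, 0.02 and 0.13 in DKD replicates 1 to 3, against −0.28, −0.23 and 0.20 in Control replicates 1 to 3, with its highest value in Control replicate 3. None of these 5 was called. Their log2 fold changes, between 0.17 for Tmem33 and 0.24 for Chchd2, follow from their choice by likeness over the same 6 libraries.

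Mitochondrially encoded genes held 18.7%, 15.3% and 18.4% of all counts in DKD replicates 1 to 3, against 11.8%, 10.6% and 12.2% in Control replicates 1 to 3, so on that share Control replicate 3 lay with its group. All 10 proximal tubule markers were lower in DKD, and 2 fell by edgeR, Slc5a12 (−2.56 ± 0.25) and Slc5a2 (−1.82 ± 0.30). Limma-voom also called 2, and DESeq2, which called 2483 of all 19717 genes tested, called 6. The call of Slc5a12 was lost without Control replicate 1, DKD replicate 1 or DKD replicate 3 (edgeR adjusted p up to 0.0937). That of Slc5a2 was lost without any library except Control replicate 3 (up to 0.156), with no filter (0.0861) and with the length trend removed (0.0559). The summed proximal tubule markers and the 9 members were both highest among the Control libraries in Control replicate 3, while between the groups the proximal markers were lower and 8 of the members higher in DKD. Of the podocyte markers 8 of 10 were lower and 0 were called by edgeR (6 with an unadjusted p under 0.05), 4 by DESeq2 and 0 by limma-voom, with Ptpro at −0.86 ± 0.18. All 8 endothelial markers were lower and 0 were called by edgeR (4 with an unadjusted p under 0.05), 3 by DESeq2 and 0 by limma-voom, with Ehd3 at −0.76 ± 0.14 and Kdr at −1.06 ± 0.21. The summed CPM of the podocyte and the endothelial list did not overlap between groups, with DKD below, as was so for 15.2% of single genes tested. The podocyte sums nearly met, at 525 CPM at most in DKD and 527 CPM at least in Control. The endothelial sums were 302 CPM at most in DKD and 318 CPM at least in Control. The part of cell makeup in the cycle genes' differences was not tested.

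The remaining marker lists overlapped between groups in summed CPM. Of 7 mesangial markers 1 fell, Agtr1a (−1.07 ± 0.16), a call lost without Control replicate 1, Control replicate 2, DKD replicate 1 or DKD replicate 3 (edgeR adjusted p up to 0.142) and with no filter (0.0709). In the other lists edgeR and limma-voom called 0. DESeq2 called 3 distal and collecting duct markers and 1 leukocyte marker, and unadjusted edgeR p under 0.05 were found for 1 thick limb, 3 distal, 1 leukocyte and 0 erythrocyte markers. The 5 thick ascending limb markers, from a segment that is also rich in mitochondria, summed to 2795 to 6284 CPM in DKD and 4835 to 6020.2 CPM in Control, with Cldn16 at 0.65 ± 0.24 and Egf at −0.78 ± 0.35. Of the 7 distal tubule and collecting duct markers 3 were higher and 4 lower, with Slc26a4 at −1.36 ± 0.24 and Slc4a1 at −0.94 ± 0.19. Aqp2, the water channel of principal cells, named after its values were seen, was at 1.59 ± 0.44 (edgeR adjusted p 0.104) with all DKD libraries above all Control libraries, and its lowest level, 79.2 CPM, was in Control replicate 3. Leukocyte markers summed to 85.3 to 209 CPM in DKD and 44.7 to 147 CPM in Control, with Cd79a at 2.37 ± 0.59 and Lyz2 at 0.81 ± 0.60. Erythrocyte transcripts included Alas2 at 0.71 ± 0.73 and Hbb-bt at 0.59 ± 0.61.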

How the data were processed

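The values the authors deposited were raw, unnormalized counts for Ensembl genes. The submitters' processing notes list fastp, HISAT2, StringTie, edgeR and build GRCm39. Their versions, the annotation release and the strand setting of the counting are not given in these sources. A value of 4 occurred 6267 times, against 3129 for 3 and 1993 for 5, so a deposited count may not stand for 1 read pair, and depth is stated in deposited counts only. Symbols, chromosomes, exon lengths and shared 31-base words came from GENCODE M21 on build GRCm38, which matched 55141 of the 55401 identifiers. No gene position is given on the authors' build.

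Genes were kept by filterByExpr (minimum count 10), scaled by TMM and compared by the quasi-likelihood test (edgeR 4.0.16, R 4.3.3) with no term but the group and with Benjamini-Hochberg adjustment over all genes tested. A log2 fold change is DKD over Control and carries its standard error after the ±, while levels carry an SD. The fit was tested on simulated data of the same design. It recovered 53 of 95 genes changed by 1 on the log2 scale and 68 of 100 changed by 2. Of its 127 calls, 6 were of unchanged genes. These counts do not cover changes as small as those of the members. Ratios within a library were compared with exact permutation tests. Alternatives were other scaling factors, filters and thresholds, DESeq2 1.42.0, limma-voom (limma 3.58.1), a block on the replicate number, robust dispersion, mitochondrial genes left out, a trend on exon length removed, and each library left out.

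The members, the gene lists and the tests were chosen with earlier results of these data known. All 9 members are named. From other lists the genes past the threshold are named, up to 4, or otherwise the 2 with the smallest p (4 for the other cycle enzymes, with the ratio partners besides). Some items this rule takes are not reported here.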

Additional observations from a re-analysis of the deposited data

How the results depend on the processing

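No member passed the threshold in any of the 18 alternatives. Across the 153 fits of a member under another scaling, filter, model or library set, 5 changed sign, all of Ogdh, whose log2 fold change was −0.0847 with library totals and ran from −0.0693 (without Control replicate 1) to 0.22 (without Control replicate 3) over the fits that left out 1 library. The members' median ran from 0.15 with library totals, where the median of all genes was −0.13, a difference of 0.28, and calls split into 101 higher and 174 lower (143 and 85 with TMM), to 0.42 without Control replicate 3, and was 0.18 with the length trend removed. Without Control replicate 3, 1 other cycle enzyme passed, and the range over single libraries was 0 to 1. The 228 calls over all genes became 516 with a filter of 1 CPM in 3 libraries, 56 with no filter, 2483 with DESeq2 and 1478 at an adjusted p under 0.1, and ran from 1 (without Control replicate 1) to 386 (without Control replicate 3). With the replicate block 0 genes passed, while 16.8% had an unadjusted p under 0.05 and the members' median stayed at 0.27. Deviations of same-numbered libraries correlated at −0.18, 0.07 and −0.22, and most libraries deviated most like one of another number. With 3 libraries per group this cannot decide whether the numbers pair the samples.

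Other signs that changed were all of differences near 0 or in erythrocyte transcripts. With library totals Mdh1 was at −0.0553 and Sdhd at −0.0314. With the length trend removed Mdh1 was at −0.0948, Sdhd at −0.0928 and Dlst at 0.0192. Leaving out single libraries, Mdh1 ran from −0.0499 to 0.26, Suclg2 from −0.26 to 0.10, Dlst from −0.21 to 0.066, Idh2 from −0.15 to 0.0483, Ogdhl from −0.15 to 0.0744, Alas2 from −0.56 to 1.30 and Hbb-bt from −0.32 to 1.07. The causes were not tested. No depth limit bears on the members, whose lowest count was 9250.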
